A study of Rattus norvegicus with 18 samples.

Results

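The 9 genes described here mark the oligodendrocyte lineage from its precursors to the cells that begin to make myelin. They are Pdgfra, Cspg4, Olig1, Olig2, Sox10, Gpr17, Enpp6, Bcas1 and Bmp4, out of 16665 rat genes with a named probe on the array. They were chosen by name, and every probe whose transcript accession maps to one of them was taken. Each gene had exactly 1 probe, and all 9 probes were well above background on all 18 arrays and were tested. The accessions were NM_012802 (Pdgfra), NM_031022 (Cspg4), NM_021770 (Olig1), NM_001100557 (Olig2), NM_019193 (Sox10), NM_001071777 (Gpr17), XM_008771259 (Enpp6), NM_145670 (Bcas1) and NM_012827 (Bmp4).

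Oligodendrocyte precursors are dividing glial cells spread through the whole adult brain. They read platelet-derived growth factor through the receptor PDGFRA, carry the proteoglycan NG2 (the product of Cspg4), and are kept in the lineage by the transcription factors OLIG1, OLIG2 and SOX10. On leaving the cell cycle they pass through a committed stage that carries the receptor GPR17 and a newly formed stage that carries the phosphodiesterase ENPP6 and the protein BCAS1, before they mature into myelinating cells. Bone morphogenetic protein 4, encoded by Bmp4, is a secreted ligand known to hold precursors back from that path.

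RNA was taken from the dissected hypothalamus of male Wistar rats, 1 rat per array, and hybridised to 1-colour Agilent arrays. The 6 control rats had no restraint and no wheel. The 6 stress rats were put under restraint for 1 to 1.5 h on 5 days a week during 3 weeks. The 6 rats with stress and exercise went through that restraint and could also run freely in a wheel for 4 weeks, of which the first came before the restraint. All rats were 9 weeks old per the sample labels, while the series' design text gives 5 weeks where it describes how the groups were formed. They ate freely and were killed under ether by decapitation. No group ran without restraint, so the wheel was only seen on top of stress, and running distances were not used here. The labels give 100 ng of RNA in one place and 200 ng in another.

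Each array held 58717 spots that are not controls, for 45598 probes, and 63.6% to 77.7% of the probes were well above background. The 75th percentile of spot intensity lay between 1960 and 2420. Levels below are log2 intensity minus that percentile of the same array, so a level of 0 equals it, and levels are not set against each other between genes. Of 6 hypothalamic neuropeptide genes (Avp, Oxt, Pomc, Crh, Hcrt and Pmch), 6 were well above background on all arrays. The file headers place the arrays on 5 slides. Controls lay on slides 1 and 2, stress rats 1 to 4 on slide 3, stress rats 5 and 6 with exercised rats 1 and 2 on slide 4, and exercised rats 3 to 6 on slide 5. The slides are numbered here in the order of the samples. Slides 1 to 3 and slides 4 and 5 are called the slide sets below. Control arrays thus never shared a slide with another group. The first scan day covered slides 2 and 4, and the second covered slides 1, 3 and 5. Stress arrays 5 and 6 stood apart from stress arrays 1 to 4 for several of the 9 genes, so results that rest on them are also given without them.

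The promoters of 4 members are shown because they belong to genes that moved in opposite directions in the comparison described next: Cspg4 and Olig2 were higher and Gpr17 and Enpp6 lower. Each line gives the 250 bases before the gene's start on the gene's own strand, 5′ to 3′, from RefSeq (assembly GRCr8). Capitals mark matches, on either strand, to the E-box CANNTG, which basic helix-loop-helix factors such as the OLIG proteins read, or to the SOX-type word ACAAAG. The regions are chr8:66160692-66160941 on the plus strand for Cspg4, chr11:43961335-43961584 on the plus strand for Olig2, chr18:23857382-23857631 on the minus strand for Gpr17 and chr16:52026729-52026978 on the minus strand for Enpp6.
Cspg4: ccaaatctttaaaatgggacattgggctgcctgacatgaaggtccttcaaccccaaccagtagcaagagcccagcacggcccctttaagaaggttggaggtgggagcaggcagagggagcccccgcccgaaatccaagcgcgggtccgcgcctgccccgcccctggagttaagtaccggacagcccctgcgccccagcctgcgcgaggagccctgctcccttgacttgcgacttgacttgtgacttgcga
Olig2: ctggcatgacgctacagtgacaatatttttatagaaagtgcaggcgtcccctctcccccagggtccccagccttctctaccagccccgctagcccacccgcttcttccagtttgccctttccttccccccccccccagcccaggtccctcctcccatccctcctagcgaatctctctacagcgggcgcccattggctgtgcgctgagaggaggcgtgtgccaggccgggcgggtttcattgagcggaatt
Gpr17: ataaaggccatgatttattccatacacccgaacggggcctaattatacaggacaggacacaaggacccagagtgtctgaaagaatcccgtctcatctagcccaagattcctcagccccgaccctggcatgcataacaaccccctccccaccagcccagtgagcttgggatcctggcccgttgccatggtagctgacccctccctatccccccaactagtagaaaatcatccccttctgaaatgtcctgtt
Enpp6: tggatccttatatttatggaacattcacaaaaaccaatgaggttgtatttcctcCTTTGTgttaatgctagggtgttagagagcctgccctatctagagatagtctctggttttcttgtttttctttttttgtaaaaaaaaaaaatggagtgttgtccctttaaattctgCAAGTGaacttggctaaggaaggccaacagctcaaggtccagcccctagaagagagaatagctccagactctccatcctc
The Enpp6 window held 1 CANNTG and 1 ACAAAG, which did not overlap, and the windows of Cspg4, Olig2 and Gpr17 held neither word. Of 33469 rat promoters of this length, 65.5% held CANNTG and 16.3% held ACAAAG. The GC content was 62.0% for Cspg4, 62.0% for Olig2, 53.2% for Gpr17 and 40.0% for Enpp6, against a median of 51.2% over all promoters. Promoters were matched for 6 of the 9 genes. Olig1, Sox10 and Bcas1 were not matched.

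Rats with stress and exercise had higher levels of Cspg4, Olig1, Olig2 and Sox10 and lower levels of Gpr17 and Enpp6 than control rats. These 6 of 9 genes passed the test (limma, Benjamini-Hochberg adjusted p under 0.05 over 31283 probes), where 26.1% of all probes tested passed, 11% higher and 15.1% lower, and 37.5% had an unadjusted p under 0.05. The changes were small, from 0.632-fold for Enpp6 to 1.20-fold for Cspg4. Pdgfra, Bcas1 and Bmp4 did not pass. All 6 calls come from a fit with group alone: with the slide set as a term 0 of 9 passed (1 at an unadjusted p under 0.05) and Enpp6 turned to 0.22, and with slide as a random block 0 of 9 passed (5 at an unadjusted p under 0.05). Between stress and control, 0 of 9 genes passed with limma, with 3 at an unadjusted p under 0.05, and 0% of all probes passed, with 11.8% at an unadjusted p under 0.05. Between stress with exercise and stress, 0 of 9 passed, with 7 at an unadjusted p under 0.05, where 3.75% of all probes passed (1.17% higher and 2.58% lower) and 24.3% had an unadjusted p under 0.05. That 3.75% changed when single arrays were left out. It lay between 0.0032% and 1.13% without any one control, exercised or stress array 1 to 4. Without stress 5 and without stress 6 it was 14.8% and 13.4%. The share at an unadjusted p under 0.05 moved less, with 18.9% to 24.1% in the former runs and 30.2% and 28.8% in the latter. The comparisons share groups: the control rats enter both comparisons with control, and the stress rats enter both comparisons with stress. In bulk tissue, fewer cells of a type and less RNA per cell cannot be told apart.

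The group means of Cspg4, Olig1, Olig2 and Sox10 were lowest in control, next in stress and highest in stress with exercise. Those of Gpr17 and Enpp6 ran the other way. Without stress arrays 5 and 6 the order held for Cspg4 (stress mean 0.0077 against 3e-04 in control, where the SD was 0.08), Olig2 (0.09 against 0.04) and Gpr17 (-3.84 against -3.73). It did not hold for the other three, where the mean of stress arrays 1 to 4 lay beyond control on the side away from exercise: 1.96 against 2.01 for Olig1, 0.21 against 0.24 for Sox10 and -2.53 against -2.59 for Enpp6. With all stress arrays, no step between neighbours in these orders passed the test. Without stress arrays 5 and 6, stress with exercise against stress passed for 5 of 9 genes, where 24.9% of all probes passed. That run was not planned, and it sets stress rats of slide 3 against exercised rats of slides 4 and 5. Group and slide set cannot be told apart in it. Pdgfra and Bcas1 had their lowest mean in stress, and Bmp4 had its highest there.

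**Figure D1:**
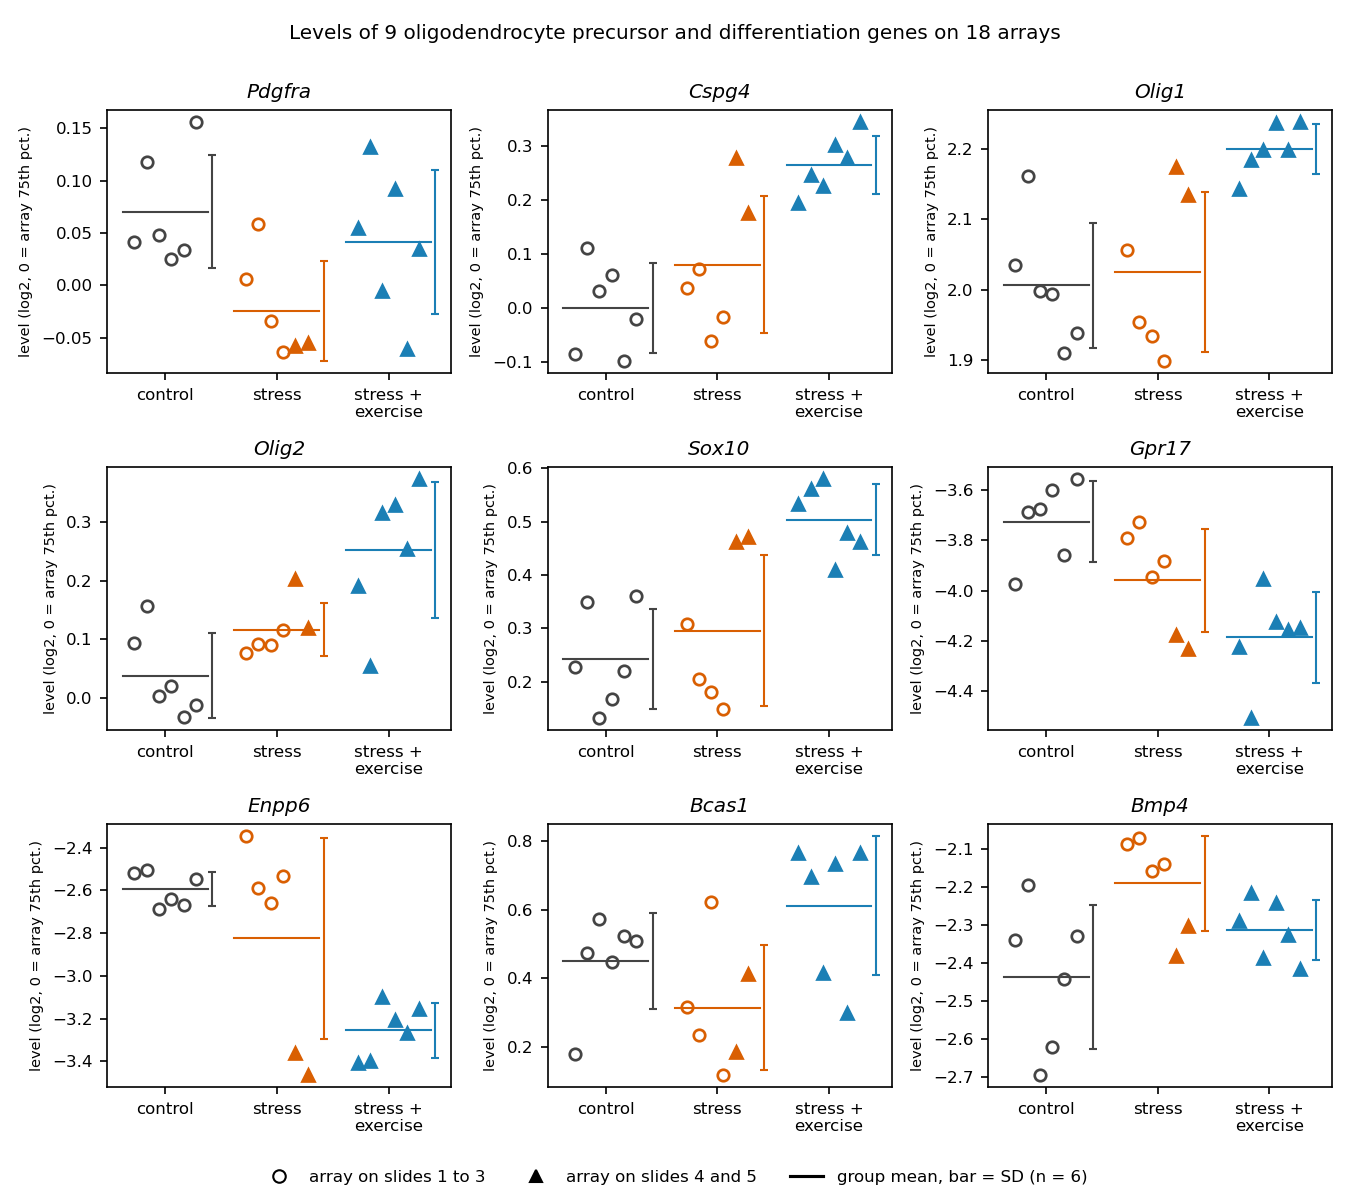
Level of each of the 9 genes on every array (log2 intensity minus the array's 75th percentile), by group; circles are arrays of slides 1 to 3, triangles arrays of slides 4 and 5, lines group means and bars the SD (n = 6). For Enpp6 the stress arrays split into 4 near the control arrays, at -2.66 to -2.35, and 2 near the exercised arrays, at -3.46 and -3.36.

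Among the transcription factors, Sox10, which is needed throughout the lineage, rose by 0.26 (SE 0.06, adjusted p = 0.00565) in stress with exercise against control. Its lowest, median and highest levels were 0.13, 0.22 and 0.36 in control, 0.15, 0.26 and 0.47 in stress, and 0.41, 0.51 and 0.58 in stress with exercise. The exercised rats did not overlap with control, while the stress rats reached into both. Stress arrays 5 and 6, at 0.46 and 0.47, lay inside the exercised range, and stress arrays 1 to 4 lay between 0.15 and 0.31.

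Olig1, a helix-loop-helix factor that acts in maturation and repair, had levels of 1.91, 1.996 and 2.16 (lowest, median and highest) in control, 1.90, 2.01 and 2.17 in stress, and 2.14, 2.20 and 2.24 in stress with exercise. It rose by 0.19 (SE 0.05, adjusted p = 0.0116) against control. One control array, at 2.16, lay within the exercised range, so the groups overlapped. Stress arrays 5 and 6 were at 2.17 and 2.13, above the 1.90 to 2.06 of stress arrays 1 to 4.

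Olig2, which specifies the lineage, is the next protein-coding gene to Olig1 on chromosome 11. Its levels were -0.03, 0.01 and 0.16 in control, 0.08, 0.10 and 0.20 in stress, and 0.06, 0.28 and 0.37 in stress with exercise. The rise against control was 0.21 (SE 0.05, adjusted p = 0.00546), and all 6 exercised rats lay above the control mean. The groups overlapped: the lowest exercised array, at 0.06, was below the highest control array. On slide 5 the exercised rats ran from 0.25 to 0.37, while on slide 4 they were at 0.06 and 0.19, next to 0.12 and 0.20 in the stress rats of that slide.

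Of the precursor surface proteins, Cspg4 had levels of -0.10, 0.01 and 0.11 in control, -0.06, 0.05 and 0.28 in stress, and 0.19, 0.26 and 0.34 in stress with exercise. It rose by 0.26 (SE 0.06, adjusted p = 0.00259) against control, with no overlap of the groups. Stress arrays 5 and 6, at 0.28 and 0.18, again lay with or near the exercised arrays, and stress arrays 1 to 4 reached 0.07 at most. Without scaling between arrays the rises of Sox10, Olig1 and Olig2 no longer passed, with adjusted p of 0.0522, 0.0955 and 0.0710, and that of Cspg4 still did. Olig1 also missed the threshold with normexp background correction (adjusted p = 0.0737).

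Pdgfra, the growth factor receptor that precursors lose as they differentiate, did not pass in any comparison. Its levels were 0.03, 0.04 and 0.16 in control, -0.06, -0.04 and 0.06 in stress, and -0.06, 0.05 and 0.13 in stress with exercise. The difference was -0.03 (SE 0.04, adjusted p = 0.624) for stress with exercise against control and 0.07 (SE 0.04, adjusted p = 0.307) against stress. For stress against control it was -0.09 (SE 0.04, adjusted p = 0.378), with all 6 stress rats below the control mean yet overlapping the control rats.

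NG2 is also made by pericytes, and PDGFRA by fibroblasts of the vessel wall and meninges. The list of 13 mural and fibroblast genes had a mean level per array of -3.41 to -2.62 in control, -3.50 to -2.51 in stress and -3.16 to -2.53 in stress with exercise, and 12 of its genes were well above background on all arrays. In stress with exercise against control, 1 of the 13 rose (Rgs5, a pericyte gene, by 0.29; another Rgs5 probe was at 0.06) and 1 fell (Acta2, the actin of smooth muscle, by 0.62). The median difference of the list was 0.15, against 0.03 over all genes. With the slide set as a term it was 0.73, and 0.53 against stress; the list's mean level over stress arrays 5 and 6 ran from -3.50 to -3.30. The part of these cells in the levels of Cspg4 and Pdgfra was not tested.

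Enpp6, a choline phosphodiesterase that marks newly forming oligodendrocytes, differed most among the 9 genes. Its levels were -2.69, -2.59 and -2.50 in control, -3.46, -2.62 and -2.35 in stress, and -3.41, -3.24 and -3.10 in stress with exercise. It fell by 0.66 (SE 0.16, adjusted p = 0.00569) against control, to 0.632 of the control level, and the groups did not overlap. The 6 stress values filled no middle ground: stress arrays 1 to 4 lay between -2.66 and -2.35, at the control level, and stress arrays 5 and 6 lay at -3.36 and -3.46, at the exercised level.

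Gpr17, the receptor of the committed stage, had levels of -3.97, -3.68 and -3.56 in control, -4.23, -3.91 and -3.73 in stress, and -4.51, -4.15 and -3.95 in stress with exercise. It fell by 0.46 (SE 0.10, adjusted p = 0.00388) against control, with all 6 exercised rats below the control mean. Control and exercised rats overlapped narrowly, at -3.97 and -3.95. The 2 lowest stress rats were again arrays 5 and 6, at -4.17 and -4.23. Gpr17 was the dimmest of the 9 probes, at an intensity of 88.0 to 189.1.

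Bcas1, which marks early myelinating cells and stays on in mature ones, did not pass in any comparison. Its levels were 0.18, 0.49 and 0.57 in control, 0.12, 0.27 and 0.62 in stress, and 0.30, 0.71 and 0.77 in stress with exercise. The difference was 0.30 (SE 0.10, adjusted p = 0.0848) against stress and 0.16 (SE 0.10, adjusted p = 0.256) against control. The spread within a group was wide here, with 4 of the 6 exercised rats at 0.70 or above and the other two at 0.42 and 0.30. Unlike Enpp6, Bcas1 in stress arrays 5 and 6, at 0.18 and 0.41, lay within the range of stress arrays 1 to 4, which was 0.12 to 0.62.

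Bmp4, the secreted ligand, had levels of -2.69, -2.39 and -2.19 in control, -2.38, -2.15 and -2.07 in stress, and -2.41, -2.31 and -2.22 in stress with exercise. Among the 9 genes it had the smallest p between stress and control, with a difference of 0.25 (SE 0.08, adjusted p = 0.304). Every one of the 6 stress values exceeded the mean of the controls, but the groups overlapped and the test was not passed. Stress arrays 1 to 4 lay between -2.16 and -2.07, and stress arrays 5 and 6 were at -2.38 and -2.30. Controls were at -2.34 and -2.19 on slide 1 and between -2.69 and -2.33 on slide 2, so these slides overlapped for Bmp4. The control arrays of slides 1 and 2 did not overlap for Olig1, at 2.036 to 2.162 against 1.911 to 1.998. Nor did they for Olig2 (0.094 to 0.157 against -0.032 to 0.022) or Enpp6 (-2.518 to -2.505 against -2.688 to -2.545). For the remaining members they overlapped. These slides also differed in scan day, and the cause of the gaps was not tested.

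**Figure D2:**
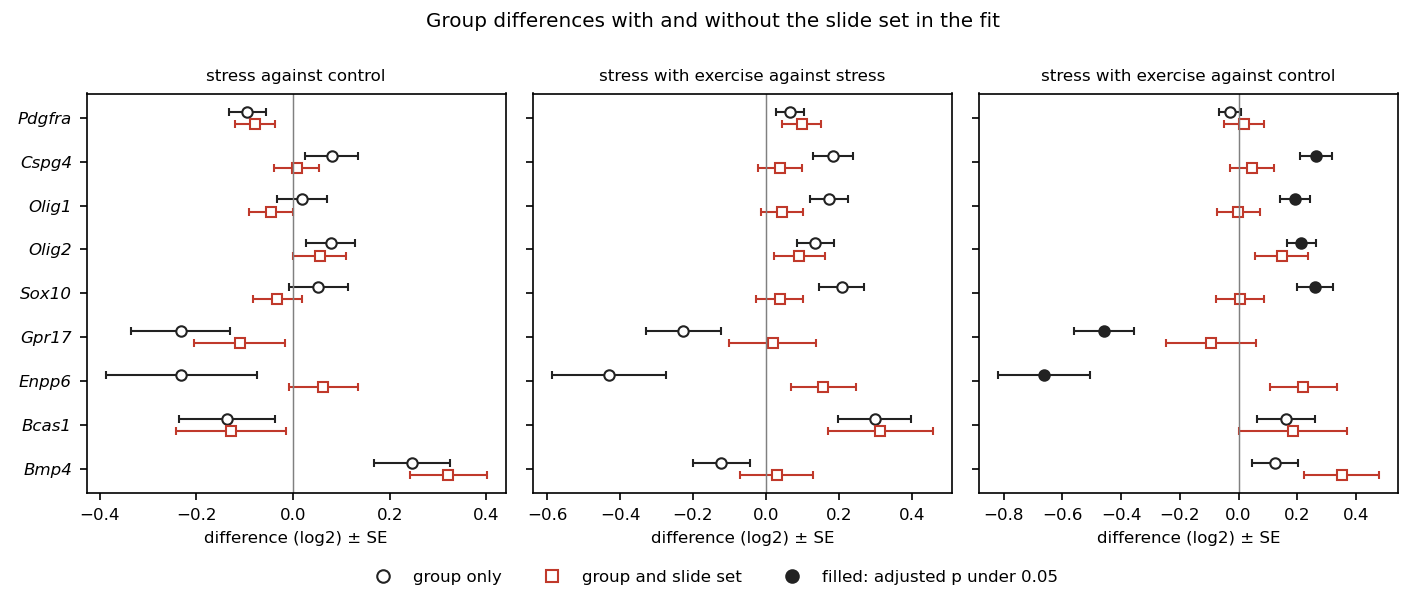
Difference in log2 level for each gene in the 3 comparisons, with its standard error from the limma fit, without (circles, filled where the adjusted p was under 0.05) and with (squares) the slide set as a term. Without that term 6 of the 9 genes passed in stress with exercise against control, and with it 0 passed in any comparison.

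The slide set moved with these results. For Cspg4, Sox10 and Enpp6 the 8 arrays of slides 4 and 5 did not overlap with the 10 arrays of slides 1 to 3, stress rats included. Over all probes the slide sets did not overlap for 3.38% with slides 4 and 5 higher and for 7.83% with them lower. Between stress with exercise and control, the same 3 genes did not overlap, where 6.35% of probes did not overlap with exercise higher and 10.7% with exercise lower. For stress against control 0 of the 9 genes had groups that did not overlap, where 0.348% of probes did so with stress higher and 0.451% with stress lower. For stress with exercise against stress it was 0 of 9 as well, against 0.758% higher and 0.726% lower.

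Here the slide set was a term beside the group. The difference of slides 4 and 5 from slides 1 to 3 then rests on the stress rats, since only they lay on both. The term sets stress arrays 5 and 6 (slide 4, scan day 1) against stress arrays 1 to 4 (slide 3, scan day 2). Slide set and scan day cannot be told apart in it, and its p-values take arrays of 1 slide as independent. Enpp6 was lower on slides 4 and 5 by -0.88 (SE 0.10, adjusted p = 5.74e-06). Sox10 was higher there by 0.25 (SE 0.07, adjusted p = 0.0178), Cspg4 by 0.22 (SE 0.06, adjusted p = 0.0262) and Olig1 by 0.19 (SE 0.06, adjusted p = 0.0413). These 4 of 9 genes passed, where 5.47% of all probes passed as higher and 10.7% as lower. Gpr17 differed by -0.37 (SE 0.13, adjusted p = 0.0626), Bmp4 by -0.23 (SE 0.11, adjusted p = 0.174) and Olig2 by 0.07 (SE 0.07, adjusted p = 0.609), and none of these passed. Nor did Pdgfra (-0.05) or Bcas1 (-0.02).

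In that fit, 0 of the 9 genes passed in any of the 3 comparisons, with 1 at an unadjusted p under 0.05 in each. Over all probes 0.0032% passed between stress and control, 0.016% between stress with exercise and stress, and 0.0224% between stress with exercise and control. For stress with exercise against control, Enpp6 then stood at 0.22 (adjusted p = 0.593), with its sign turned, Olig1 at -6e-04, Sox10 at 0.0056, Cspg4 at 0.05, Gpr17 at -0.09 and Olig2 at 0.15. Since no control rat lay on slides 4 and 5 and no exercised rat on slides 1 to 3, slide set and group cannot be told apart in the comparison with control except through those stress rats. With each slide as a random block, which assumes that slides vary at random, 0 of 9 passed in stress with exercise against control, with 5 at an unadjusted p under 0.05. Enpp6 came closest, with an adjusted p of 0.0525. In that fit 5.62% of all probes passed.

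Slide 4 held 2 stress rats and 2 exercised rats side by side. Enpp6 was at -3.36 and -3.46 in the stress rats and -3.41 and -3.40 in the exercised rats. Cspg4 was at 0.28 and 0.18 against 0.19 and 0.25, and Olig1 at 2.17 and 2.13 against 2.14 and 2.18. On that slide the groups overlapped for these 3 genes and for Olig2 and Gpr17, 5 of the 9 members. For the other 4, Pdgfra, Sox10, Bcas1 and Bmp4, both exercised rats were above both stress rats, where 19.5% of all probes were so placed and 27.5% the other way round. Sox10 was at 0.46 and 0.47 in stress and 0.53 and 0.56 with exercise. Bcas1 was at 0.18 and 0.41 in stress and 0.77 and 0.70 with exercise. Among arrays of the first scan day, which for these groups are those of slide 4, Bcas1 differed by 0.43 (adjusted p = 0.469).

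Stress arrays 5 and 6 also set the count between stress with exercise and stress. Without both of them, 5 of 9 genes passed there, namely Cspg4, Olig1, Sox10, Gpr17 and Enpp6, where 24.9% of all probes passed. With only stress 5 or only stress 6 left out, 4 passed each time (Cspg4, Olig1, Sox10 and Enpp6). These runs leave stress rats mostly or only on slide 3, so the comparison then runs between slide sets. Without both arrays, stress with exercise against control still gave 6 of 9, against 29.8% of all probes. Stress against control gave 0 of 9 (1 at an unadjusted p under 0.05), against 0.00639%.

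The scan day gave further values. With it as a block, 4 of 9 genes passed between stress with exercise and stress (Cspg4, Olig1, Sox10 and Enpp6), where 9.94% of all probes passed, and 6 of 9 between stress with exercise and control, where 31.4% passed. On scan day 1 alone, Gpr17 (-0.53, adjusted p = 0.0248) and Enpp6 (-0.78, adjusted p = 0.00206) were lower in stress than in control, where 10.4% of all probes passed. The stress rats of that day were arrays 5 and 6 of slide 4, set against controls of slide 2. On scan day 2 alone, 7 of 9 genes passed between stress with exercise and stress, where 22.1% of all probes passed, and there exercised rats of slide 5 were set against stress rats of slide 3. Within slides 4 and 5 alone, 0 of 9 passed between stress with exercise and stress, with 0 at an unadjusted p under 0.05, where 0.00959% of all probes passed.

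**Figure D3:**
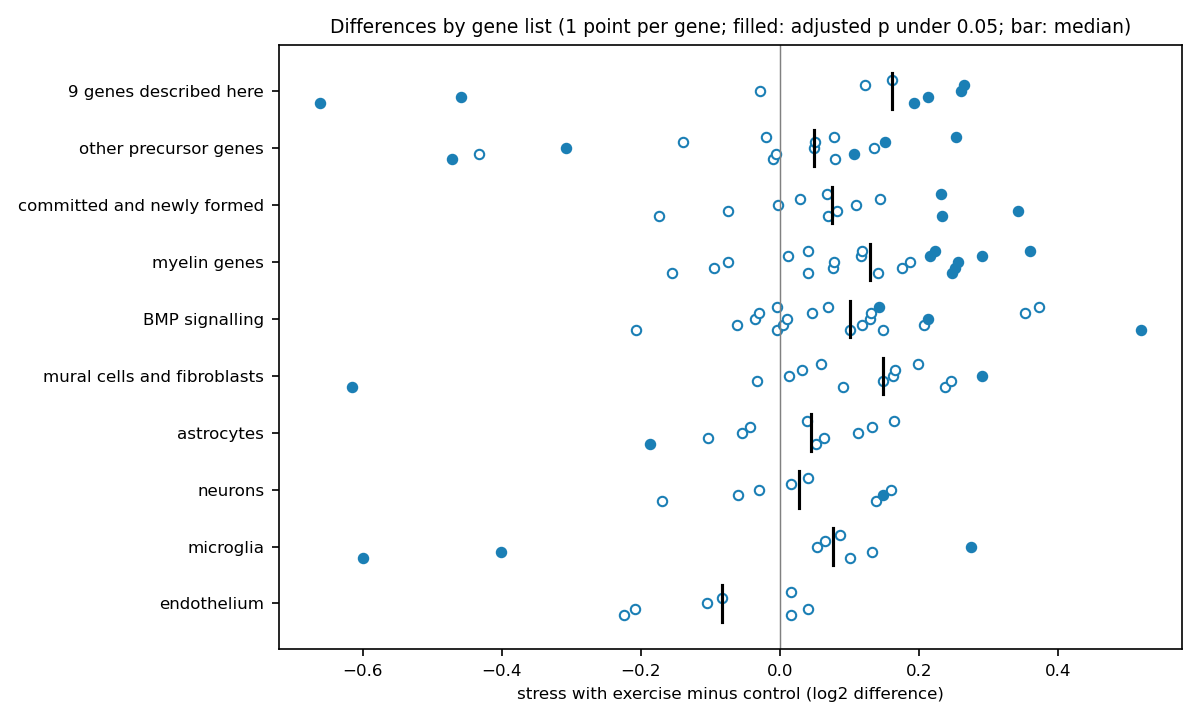
Differences in log2 level between stress with exercise and control for the genes of the lineage lists and of other cell types, 1 point per gene, filled where the adjusted p was under 0.05, with a bar at the list median. The myelin list has a median of 0.13 and 7 of 20 genes that rose, and the endothelial list has a median of -0.08 and no filled point.

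The rest of the lineage was read from lists of known genes, in stress with exercise against control, where 1999 of 13045 named genes rose and 1464 fell. Of 15 other precursor genes tested, 3 rose and 2 fell, with a median of 0.05 against 0.03 over all named genes. Ccnd1, the G1 cyclin, rose by 0.11 (another Ccnd1 probe, at 0.09, did not pass), Rlbp1 by 0.15 and C1ql1 by 0.25. Nkx2-2, a homeodomain factor of the step into differentiation, fell by 0.47 (adjusted p = 0.00423). Pdgfa, the ligand of PDGFRA, was at 0.05 and did not pass.

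Of 12 other genes of committed and newly formed cells, 3 rose and 0 fell, with a median of 0.08. Myrf, the factor that switches on myelin genes, rose by 0.23 (adjusted p = 0.00471), Prom1 by 0.23 and Nkx6-2, a homeodomain factor of myelinating cells, by 0.34 (adjusted p = 0.00312). Nkx6-2 also rose by 0.30 (adjusted p = 0.0405) against stress, the only one of these 12 to pass there. The direction of Myrf and Nkx6-2 was thus opposite to that of Gpr17 and Enpp6.

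Of 20 myelin genes, 7 rose and 0 fell, with a median of 0.13. Mag, an adhesion protein of the innermost myelin layer, rose by 0.36 (adjusted p = 0.000969), but another Mag probe was at -0.09 and did not pass. Ppp1r14a rose by 0.29, Hapln2 by 0.25, Tf by 0.25, Mog by 0.22 and Cnp by 0.22. For Mbp, the major basic protein of myelin, a second and dimmer probe was lower by -0.17 (adjusted p = 0.0290), while second probes of Cldn11 (0.29) and Mobp (0.26 and 0.30) passed as higher where the probe that stands for the gene did not. Probes of one gene thus did not always run together. The mean level of the list per array ran from 0.83 to 1.05 in control, 0.93 to 1.07 in stress and 1.00 to 1.19 in stress with exercise.

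Among 21 genes of BMP signalling other than Bmp4, 3 rose and 0 fell, with a median of 0.10. The type I receptor genes Bmpr1a and Acvr1 rose by 0.21 and 0.52, and Bambi, a decoy receptor, by 0.14. Acvr1 was well above background on 17 of 18 arrays, other Bmpr1a probes were at -0.30 and 0.06, and a second Bmpr2 probe passed at 0.28 where the one that stands for the gene did not. Between stress and control, where Bmp4 differed most, 0 of the 21 genes passed and the median was 0.04. With the slide set as a term, no gene of any of these lists passed in any comparison. The medians for stress with exercise against control then became -0.05 for the other precursor genes, -0.0099 for the committed and newly formed genes, 0.07 for the myelin genes and 0.04 for BMP signalling, so the first pair turned sign.

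Correlations between genes were taken within each slide set, over the 10 arrays of slides 1 to 3 and the 8 arrays of slides 4 and 5, as a description with no test. The arrays of a set share slides, scaling and, in part, groups. Over the 36 pairs of the 9 genes the median Pearson coefficient was 0.27 and 0.14, with 16 pairs positive in both sets and 2 negative in both. Among all 12008 named genes with a probe well above background on every array, the gene most like Sox10 was Egr1, an immediate early gene, at 0.94 and 0.91. The gene most like Olig2 was Stoml2, at 0.87 and 0.90, and that most like Olig1 was Ecel1, at 0.88 and 0.86. The top genes for Enpp6 (Mamdc4, at 0.84 and 0.84), Gpr17 (Usp54, at 0.75 and 0.78), Bcas1 (Topors, at 0.79 and 0.76), Cspg4 (Gadd45gip1, at 0.77 and 0.78) and Pdgfra (Atp6ap1l, at 0.73 and 0.78) lay lower. Each named gene is the highest of 12008 over few arrays, and how high such a value lies by chance was not tested.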

How the data were processed

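Each array file holds the intensity of every spot. Per the file headers, the authors scanned the arrays with 1 dye and Agilent Feature Extraction 12.1.0.3 made the processed signal, which is background-corrected; the submitters' processing notes name version 9.1. The deposited series matrix holds the same intensity times 1 constant per array, and it was used as an alternative. Levels are log2 intensity less the log2 of the 75th percentile, taken per array over spots that are not controls. Spots marked as outliers were dropped, as were control spots, and repeat spots averaged. Testing needed a probe to exceed background clearly on 5 or more of the 6 arrays in some group, which 31283 probes did.

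Probes were named by transcript accession through a RefSeq table of assembly GRCr8: 21220 matched 1 symbol, 0 several and 24378 none. The arrays were designed on rn4. The brightest tested probe stands for a gene; all probes of the 9 genes were reported. Groups were compared with limma 3.58.1 in R 4.3.3 (lmFit and eBayes, 18 arrays, group as the only term, two-sided, Benjamini-Hochberg over all tested probes, threshold 0.05). The script was checked on simulated data with independent noise and no slide effect. That check does not cover deviations shared by arrays of the same slide. The number of arrays limits the precision.

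The 9 genes, the lists and the tests were chosen with earlier results of these data known. Of the lists, the genes that passed are named, and for each member the genes with the highest value of the lower of the correlations in the 2 slide sets; some of these genes are not reported here. Alternatives covered scaling, background (normexp with an offset of 50, on the median signal, as mean signals were not used here), the dim filter, slide, scan day and samples left out. Samples of equal number did not deviate together (correlations from -0.246 to 0.185, 4 of 18 over 0.1), so the numbers were not treated as pairs.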

Additional observations from a re-analysis of the deposited data

Results flagged for a closer look

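In 27 sets of 6 arrays (9 genes in 3 groups), 2 held an array whose gap to its nearest neighbour exceeded the critical share of the group's range in Dixon's test at the 5% level. Chance alone sets off about 1 in 20 such sets. Olig2 in stress array 5 was at 0.2024, above the other stress arrays, with a gap of 0.652 of the range. Bcas1 in control array 1 was at 0.1777, below the other control arrays, with a gap of 0.677 of the range.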

How the results depend on the processing

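For stress with exercise against control, the count of genes that passed was 6, and it was 3 without scaling between arrays (16.5% of all probes passed), 0 with the slide set as a term, 0 with slide as a random block, 3 on scan day 1 alone (15.5%) and 1 (Enpp6) on scan day 2 alone (16.8%); it stayed at 6 with each array left out in turn. For stress with exercise against stress it was 0, and it was 1 with quantile normalization (Olig1; 4.92% of all probes), 1 with normexp (Sox10; 5.17%), 4 with scan day as a block, 7 on scan day 2 alone, 5 without stress 5 and 6, and 0 to 4 with single arrays left out, the 4 without stress 5 or stress 6. For stress against control it was 0, 2 on scan day 1 alone (Gpr17 and Enpp6, where the stress rats are those of slide 4), and 0 with each array left out. With the replicate block the counts were 0, 0 and 6. Some of these fits hold fewer arrays, and the cause of the changed counts was not tested. None of the 6 scaling, background and matrix alternatives turned the sign of any of the 27 differences. Among probes called in stress with exercise against control, 42.1% were higher, 55.3% with quantile normalization and 14% without scaling; against stress 31.3% were higher, and 2.4% without scaling. Counts over all probes against stress, 1173 as reported, were 2 without the dim filter, 2 with the replicate block, 5 with the slide set, 0 with slide as a random block or with only those groups (3478 and 6538 at an unadjusted p under 0.05) and 3109 with scan day as a block. Leaving out 1 array gave 2 to 352 for a control, 1 to 3 for stress 1 to 4, 1 to 9 for an exercised array, and 4633 and 4180 for stress 5 and 6.

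Signs turned as follows. For stress against control, with the slide set as a term, on slides 1 to 3 alone or without stress 5 and 6, Olig1 was at -0.0453, Sox10 at -0.0324 and Enpp6 at 0.0627; on scan day 2 Cspg4 was at -0.0058, Olig1 at -0.1376, Olig2 at -0.0312 and Sox10 at -0.0779; with single arrays left out Olig1 ran from -0.0105 (without stress 5; -0.0026 without stress 6) to 0.0503. For stress with exercise against stress, with the slide set or on slides 4 and 5 alone, Gpr17 was at 0.0183, Enpp6 at 0.1578 and Bmp4 at 0.0293; on scan day 1 Cspg4 was at -0.0066, Olig2 at -0.0381, Enpp6 at 0.01 and Bmp4 at 0.0892. For stress with exercise against control, with the slide set, Pdgfra was at 0.0192, Olig1 at -6e-04 and Enpp6 at 0.2204; Pdgfra was at 0.0279 on scan day 1 and Bmp4 at -0.0762 on scan day 2. All 9 probes were well above background on all arrays; Gpr17 was the dimmest.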

Other observations

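Other cell types of the tissue, in stress with exercise against control, gave these values. Of 10 astrocyte genes 0 rose and 1 fell: Gja1, the main astrocyte connexin, by 0.19 (adjusted p = 0.00289), with a list median of 0.05. Second probes of S100b (0.10, adjusted p = 0.0427; -0.10 for the brighter probe) and Slc1a3 (0.16, adjusted p = 0.0244) passed as higher. Of 8 microglia genes 1 rose, Tmem119 by 0.27, and 2 fell, the chemokine receptor gene Cx3cr1 by 0.60 and the integrin gene Itgam by 0.40; another Itgam probe was at -0.08 and did not pass. Of 8 neuronal genes 1 rose, Rbfox3 by 0.15, and second probes of Eno2 (0.34) and the microglial gene Aif1 (0.11) passed as higher too. Of 7 endothelial genes 0 rose and 0 fell, with a median of -0.08. Tmem119 (0.26, adjusted p = 0.0390) and the pericyte gene Abcc9 (0.33, adjusted p = 0.0405) also rose against stress. None of these genes passed with the slide set as a term.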
